A study of Mus musculus with 4 samples.

Results

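Sterol and fatty acid synthesis genes were followed across 4 cultures of RAW264 cells, a macrophage-like line from a BALB/c mouse. The members are 32 genes chosen by name: the enzymes from acetyl-CoA to cholesterol, the proteins that sense and carry sterols, and the enzymes that make, lengthen and desaturate fatty acids. Probes of 31 of them, 22 sterol and 9 fatty acid genes, stood among 24788 named genes on the arrays. Acat2 had no probe under its own name. All 31 were well above background on all 4 arrays.

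Every culture received small interfering RNA (siRNA), either against green fluorescent protein (siGFP, the control, which mouse cells do not carry) or against the transcription factors Tfe3 and Tfeb together (siTfe3/Tfeb). After 48 hours, ferric chloride was added at 500 µM or left out for 24 hours. The 4 groups are therefore siGFP, siGFP with iron, siTfe3/Tfeb and siTfe3/Tfeb with iron, each of 1 array on which total RNA was labelled with Cy3. Because each group is 1 array, no difference between groups has a replicate check, and no test or p-value was computed. The labels do not say whether a culture was pooled from several dishes.

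Levels below are log2 of the processed spot intensity minus that array's 75th percentile, so 0 is the 75th percentile of all non-control spots, and the brightest probe stands for a gene. The error given is the SD of a log2 difference that repeated spots of 1 probe on 1 array imply. It was 0.064 for levels above 2, 0.084 from 0 to 2, 0.12 from -2 to 0 and 0.37 below -2, and it leaves out variation between cultures. The values from 0 to 2 and from -2 to 0 rest on only 16 and 10 combinations of probe and array. The 75th percentiles ran from 593 to 636 in intensity and no spot was saturated, so the arrays were of like brightness. Relative to the matching siGFP array, the brightest Tfe3 probe stood at 60.6% (no iron) and 68.4% (iron), and the brightest Tfeb probe at 91.0% and 112%. Tfe3 was thus lower under its siRNA while Tfeb was near the control, so "knockdown" below names only the label. All 10 macrophage markers, among them Lyz2 and Csf1r, were well above background on every array. Their summed level, in log2, ran from 9.84 to 10.07. Of the markers of other cells, those above background on every array were 1 of 5 fibroblast genes (Col1a2), 1 of 5 epithelial (Krt14), 1 of 4 endothelial (Pecam1), 2 of 5 lymphocyte (Cd3e and Ms4a1), 0 of 4 hepatocyte and 1 of 4 adipocyte genes (Lep).

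Cholesterol is built from acetyl-CoA through mevalonate, farnesyl diphosphate and squalene, and fatty acids from the same acetyl-CoA through malonyl-CoA. Transcription of both routes is raised by the membrane-bound SREBP factors, which Scap carries to the Golgi for cleavage when sterol is scarce and which Insig proteins hold back when it is plentiful. SREBP-2 (Srebf2) is known mainly for sterol genes and SREBP-1 for fatty acid genes. In macrophages the pathway also yields desmosterol and oxysterols, ligands of the liver X receptors. Several enzymes of both routes bind iron themselves: Cyp51 as a haem protein, and Sc5d, Msmo1 and the Scd and Fads desaturases through non-haem iron.

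The promoters of the members are shown first, because the sterol enzymes differed in the same direction with iron. RefSeq windows from 250 bases before to 50 after the start were found for 25 of the 32 members (assembly GRCm38.p6). Searched on both strands, the sterol regulatory element TCACNCCAC stood in 1 of 19 sterol members with a window and 0 of 6 fatty acid members, against 1.44% of all 27025 genes with a window. The NF-Y box CCAAT stood in 17 of 19 sterol members (89.5%) and 3 of 6 fatty acid members (50.0%), against 41.1% of all genes. The E-box CACGTG, the core of the sites that Tfe3 and Tfeb bind, stood in 5 of 19 and 0 of 6, against 8.09%. GC boxes (GGGCGG, whose letters may overlap a neighbouring motif) stood in 18 of 19 and 3 of 6, against 38.2%. These are letter matches in a short window, not bound sites, and a window without a match says only that these letters are not in it. The comparison genes were not matched to the members for expression, and matches were pooled over all windows of a gene.

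**Figure D1:**
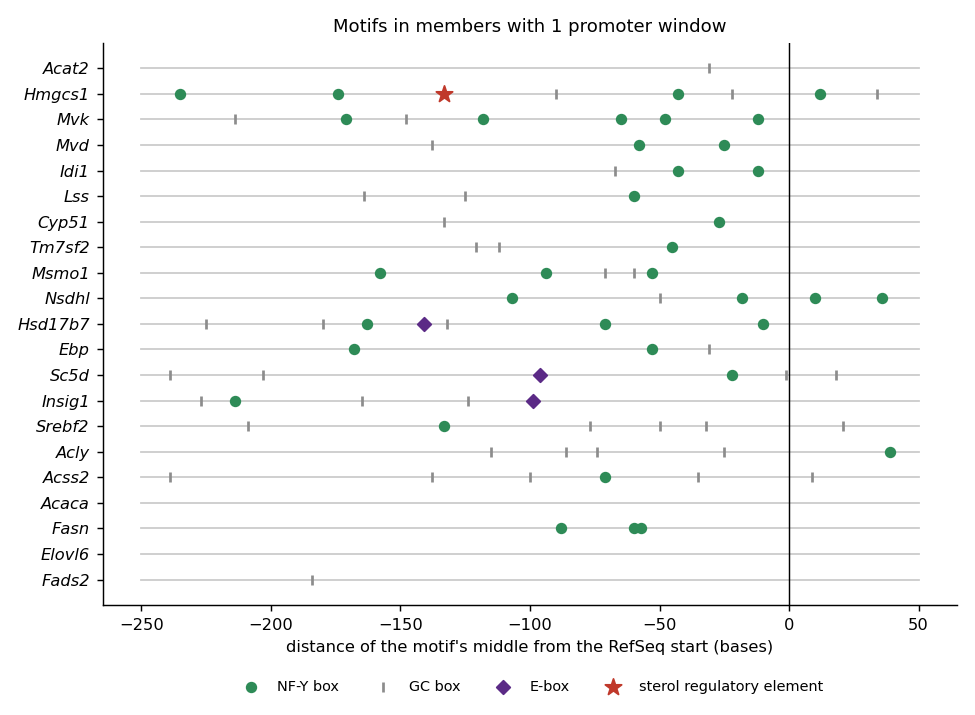
Positions of 4 motifs in the members with a single RefSeq promoter window, by distance of the motif's middle from the annotated start in bases. Each row is a gene and each mark a match on either strand; NF-Y boxes stand in most sterol rows, and the only sterol regulatory element of this spelling is in Hmgcs1.

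The 250 bases before the start follow for 6 members, with sterol regulatory elements, NF-Y boxes (CCAAT, or ATTGG on the other strand) and E-boxes in capitals. Hmgcs1 is shown because it held the sterol regulatory element. Hsd17b7, Cyp51 and Sc5d had the largest mean difference with iron among enzymes with a window, Insig1 is the sterol sensor that stood highest with iron in siGFP cells, and Fasn is the fatty acid gene set against them. The last 5 were chosen after their values were seen.
Hmgcs1 (chr13:119690101-119690350, plus strand): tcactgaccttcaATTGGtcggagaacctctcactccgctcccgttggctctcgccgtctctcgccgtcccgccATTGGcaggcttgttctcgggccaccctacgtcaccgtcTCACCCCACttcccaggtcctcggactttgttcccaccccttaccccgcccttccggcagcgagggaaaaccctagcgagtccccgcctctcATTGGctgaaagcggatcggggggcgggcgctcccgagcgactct
Hsd17b7 (chr1:169969206-169969455, minus strand): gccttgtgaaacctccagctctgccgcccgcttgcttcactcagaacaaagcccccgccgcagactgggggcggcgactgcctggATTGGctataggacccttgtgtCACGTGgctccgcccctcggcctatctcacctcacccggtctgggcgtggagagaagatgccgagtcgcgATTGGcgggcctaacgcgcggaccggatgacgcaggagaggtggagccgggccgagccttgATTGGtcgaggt
Cyp51 (chr5:4104698-4104947, minus strand): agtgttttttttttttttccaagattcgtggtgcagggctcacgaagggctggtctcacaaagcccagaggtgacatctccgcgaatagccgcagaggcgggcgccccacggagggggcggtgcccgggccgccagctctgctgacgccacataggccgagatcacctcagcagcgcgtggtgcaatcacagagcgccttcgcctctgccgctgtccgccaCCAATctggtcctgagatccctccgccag
Sc5d (chr9:42264301-42264550, minus strand): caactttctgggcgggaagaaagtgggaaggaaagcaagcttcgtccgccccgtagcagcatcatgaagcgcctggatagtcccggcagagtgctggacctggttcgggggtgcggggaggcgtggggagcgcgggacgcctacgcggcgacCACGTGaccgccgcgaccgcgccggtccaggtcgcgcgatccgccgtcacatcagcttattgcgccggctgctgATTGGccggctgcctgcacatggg
Insig1 (chr5:28071162-28071411, plus strand): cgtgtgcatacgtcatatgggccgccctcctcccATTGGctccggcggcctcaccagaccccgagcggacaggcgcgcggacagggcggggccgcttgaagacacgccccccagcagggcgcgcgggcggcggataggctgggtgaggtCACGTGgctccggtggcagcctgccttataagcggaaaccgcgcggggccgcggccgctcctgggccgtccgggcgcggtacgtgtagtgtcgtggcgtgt
Fasn (chr11:120824548-120824797, minus strand): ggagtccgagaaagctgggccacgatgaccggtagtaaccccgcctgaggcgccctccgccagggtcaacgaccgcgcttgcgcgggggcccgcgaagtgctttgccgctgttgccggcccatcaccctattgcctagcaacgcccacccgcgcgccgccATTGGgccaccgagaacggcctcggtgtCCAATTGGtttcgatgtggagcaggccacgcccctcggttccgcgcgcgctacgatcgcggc

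With iron, 20 of 22 sterol members were above 0 in siGFP cells, against 46.0% of 14239 genes measured, and the median log2 difference was 0.43, against -0.020 over all genes. Of these members 5 were higher by 1.5-fold or more and 0 lower, where 4.18% of all genes were higher and 1.83% lower by that fold. In siTfe3/Tfeb cells 20 of 22 were again above 0 (49.0% of all 14084 genes), the median was 0.69 (-0.0067 over all genes), and 14 were at least 1.5-fold higher (4.58%). The fatty acid members stood lower: 6 of 9 above 0 and a median of 0.11 in siGFP cells, 9 of 9 and 0.32 in siTfe3/Tfeb cells, with 0 and 1 at least 1.5-fold higher. With the mean of all probes Acss2 was below 0 in siTfe3/Tfeb cells (-0.23). No member was 1.5-fold lower with iron in either siRNA group, where 1.83% of all genes were with siGFP and 3.39% with siTfe3/Tfeb. From 2-fold, 0 members were higher with siGFP (1.40% of genes) and 1 with siTfe3/Tfeb (1.62%), and 0 were lower (0.267% and 0.454% of genes). The 2 iron comparisons share no array.

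**Figure D2:**
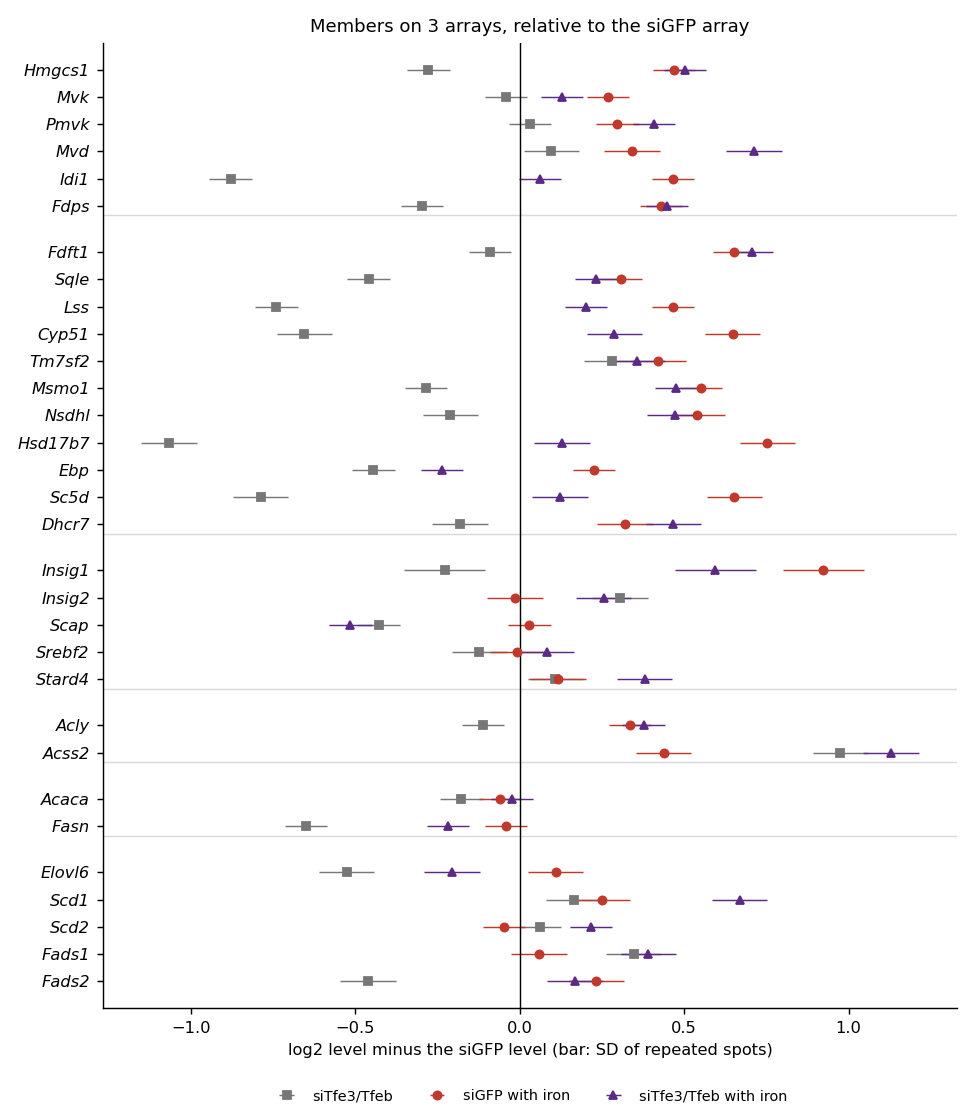
Level of each of the 31 members on the other 3 arrays minus its level on the siGFP array, in log2, with the SD of repeated spots as a bar. Rows are grouped from top to bottom into early sterol enzymes, late sterol enzymes, sterol sensing and transport, acetyl-CoA supply, fatty acid synthesis, and elongation and desaturation; siGFP with iron lies right of 0 for every sterol enzyme, and siTfe3/Tfeb without iron lies left of 0 for most.

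Early steps of the sterol route, which end at farnesyl diphosphate, had a median iron difference of 0.39 (siGFP) and 0.68 (siTfe3/Tfeb). In both, 6 of 6 were above 0, against 46.0% and 49.0% of all genes. Hmgcs1, which makes HMG-CoA, had levels of 2.81 without and 3.28 with iron on the siGFP arrays, and of 2.53 and 3.31 on the siTfe3/Tfeb arrays. Both iron arrays stood above both arrays without iron, a 1.39-fold difference with siGFP (log2 0.47, spot SD 0.064) and a 1.72-fold difference with siTfe3/Tfeb (0.78). Fdps, the synthase of farnesyl diphosphate, read 5.60, 6.03, 5.30 and 6.05 in the same order, differences of 0.43 and 0.74. Idi1, the isomerase that supplies its substrate, read 2.62, 3.09, 1.75 and 2.68. Its iron differences were 0.47 and 0.94, and siTfe3/Tfeb with iron stood close to untreated siGFP, since siTfe3/Tfeb without iron was the low array.

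The kinases and the decarboxylase between them differed less. With iron, Mvk (mevalonate kinase) stood at 0.27 in the control and 0.17 in the knockdown, and Pmvk (phosphomevalonate kinase) at 0.30 and 0.38. Mvd, the mevalonate diphosphate decarboxylase, stood at 0.34 and 0.62. Among the early steps, 0 of 6 reached 1.5-fold with siGFP (4.18% of all genes) and 4 of 6 with siTfe3/Tfeb (4.58%). Acat2, the cytosolic thiolase that starts the route, could be read only through a probe named for its neighbour Acat3 that also lists an Acat2 transcript. That probe stood at 0.48 and 0.92 with iron (spot SD 0.12) and cannot tell the genes apart.

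Late steps, from squalene to cholesterol, had the higher medians, 0.54 for siGFP and 0.76 for siTfe3/Tfeb. In both, 11 of 11 were above 0, against 46.0% and 49.0% of all genes. Hsd17b7, a reductase of the sterol ring's demethylation steps, read 1.48 without and 2.23 with iron on the siGFP arrays, and 0.41 and 1.61 on the siTfe3/Tfeb arrays (probe at chr1:171882591-171882650 of mm9). With iron it was 1.68-fold higher for siGFP (log2 0.75, spot SD 0.084) and 2.29-fold for siTfe3/Tfeb (1.19), the member past 2-fold. Cyp51, the lanosterol demethylase and a haem protein, read 1.07, 1.72, 0.42 and 1.36 in the same order, 1.57-fold and 1.92-fold higher with iron. Sc5d, a desaturase with non-haem iron, read 1.75, 2.41, 0.97 and 1.88, 1.57-fold and 1.88-fold higher. In each of these 3 genes the lowest array was siTfe3/Tfeb without iron, and the highest was siGFP with iron.

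Lss, which closes squalene epoxide into lanosterol, read 2.44, 2.90, 1.70 and 2.64, differences with iron of 0.47 and 0.94. Fdft1 (squalene synthase) stood at 0.65 and 0.80 with iron and was nearly level between the siRNA groups without iron (-0.09). Msmo1, the methyl sterol oxidase, stood at 0.55 and 0.76, and its partner Nsdhl, a sterol dehydrogenase, at 0.54 and 0.68. Sqle (squalene epoxidase) stood at 0.31 and 0.69, and Dhcr7, the last reductase on the way to cholesterol, at 0.32 and 0.65. So 9 of the 11 late enzymes reached 1.5-fold with iron in the knockdown (4.58% of all genes), against 4 in the control (4.18%). Ebp, a sterol isomerase, differed by 0.23 and 0.21. Tm7sf2, a sterol reductase whose reaction the nuclear envelope protein Lbr also performs, stood at 0.42 for siGFP but 0.08 for siTfe3/Tfeb, the latter within its spot SD. Tm7sf2 and, by less than its spot SD, Ebp were the late enzymes with the smaller iron difference in the knockdown. A second Tm7sf2 probe gave 0.42 and 0.09.

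The 5 sterol sensing and transport genes had lower medians with iron, 0.030 and 0.21, and among them Insig1 stood apart. Insig1 is itself a target of the SREBP factors and holds Scap back in the endoplasmic reticulum. It read -1.47 without and -0.55 with iron on the siGFP arrays, and -1.70 and -0.88 on the siTfe3/Tfeb arrays (probe at chr5:28404246-28404305 of mm9). Both iron arrays stood above both others (1.90-fold and 1.77-fold, log2 0.92 and 0.82, spot SD 0.12), from a single probe. With normexp background correction the siGFP difference of Insig1 was 0.73 (75th percentile) or 0.74 (quantile normalization). The related Insig2 read 1.37, 1.36, 1.68 and 1.63, with iron differences of -0.01 and -0.05, both within the spot SD of 0.084. Its probes did not concur: one other gave -0.01 and -0.01 with iron, but another gave 0.22 and 0.35, beyond the same spot SD. Srebf2 read 1.40, 1.40, 1.28 and 1.49, level with iron for siGFP (-0.01) and 0.21 higher for siTfe3/Tfeb. Stard4, a carrier of free cholesterol, stood at 0.12 and 0.27. A second, dimmer Stard4 probe gave 0.09 and 0.59 with iron, the latter past 1.5-fold. With knockdown that probe gave -0.56 without iron and -0.06 with iron, where the brightest gave 0.11 and 0.26.

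Scap differed between the siRNA groups and little with iron (0.03 and -0.09). Its levels were 2.67 without and 2.70 with iron on the siGFP arrays, and 2.24 and 2.15 on the siTfe3/Tfeb arrays. The latter stood below both siGFP arrays, at -0.43 without iron and -0.54 with iron (spot SD 0.064), from a single probe. Insig2 went the other way, at 0.31 without iron and 0.27 with iron, and its other probes gave 0.33 and 0.33, and 0.17 and 0.29.

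**Figure D3:**
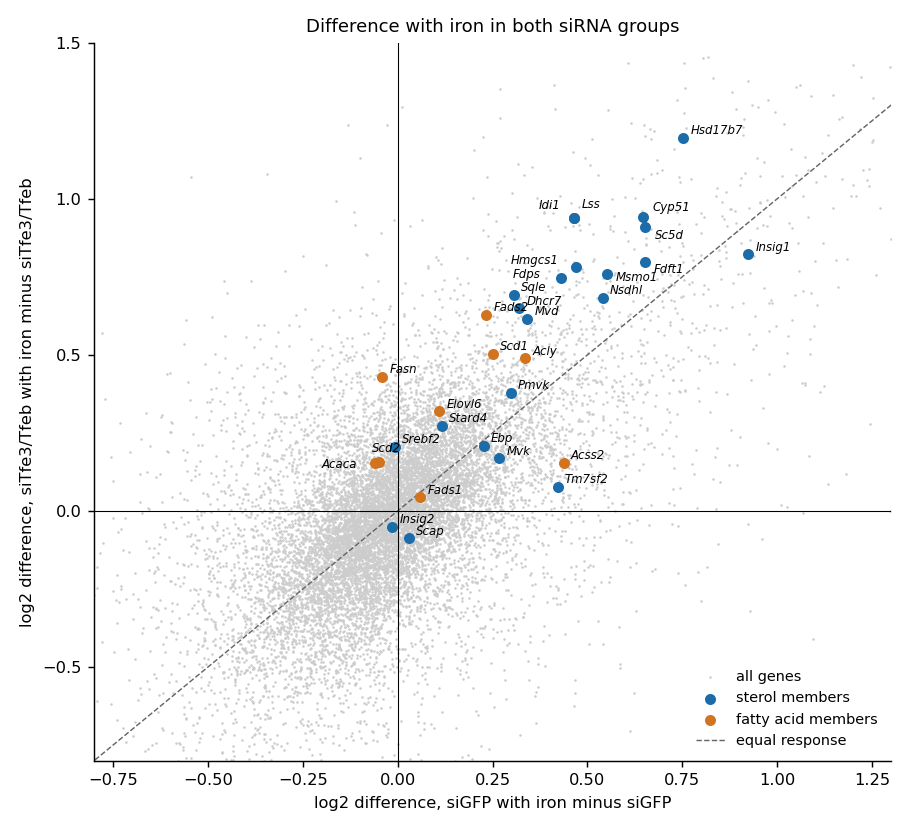
Log2 difference with iron in siGFP cells (horizontal) against that in siTfe3/Tfeb cells (vertical), for the sterol members, the fatty acid members and, in grey, the genes well above background on all 4 arrays that fall inside the axes. Of the 22 sterol members 16 lie above the dashed line of equal response. Insig2 and Scap lie near the crossing of the axes, apart from the enzymes, and Srebf2 lies at -0.01 and 0.21.

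Among the fatty acid members, the suppliers of acetyl-CoA stood nearest the sterol enzymes in siGFP cells. Acly, which cleaves citrate, was higher with iron by 0.34 in the control and 0.49 in the knockdown. Acss2, which activates acetate, read 0.24 without and 0.68 with iron on the siGFP arrays, and 1.21 and 1.37 on the siTfe3/Tfeb arrays (probe at chr2:155388385-155388444 of mm9). Both siTfe3/Tfeb arrays stood above both siGFP arrays, 1.97-fold without iron and 1.61-fold with iron, which made Acss2 the only member at least 1.5-fold higher with knockdown (6.26% of all genes without iron, 3.96% with iron). One other Acss2 probe gave 0.99 and 0.57, another 0.60 and -0.20, and the last -0.05 and -0.48, all of them below a level of -2 with a spot SD of 0.37. With the mean of all probes Acss2 was 0.63 and 0.15, the second no longer 1.5-fold. With iron, the same other probes lay from -0.11 to 0.53 for siGFP and from -0.63 to 0.11 for siTfe3/Tfeb. The mean of all probes was then 0.26 and -0.23, so the sign with siTfe3/Tfeb depends on the probe.

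The synthesis enzymes themselves were level with iron in siGFP cells. Fasn (fatty acid synthase) read 5.38 without and 5.34 with iron on the siGFP arrays, and 4.73 and 5.16 on the siTfe3/Tfeb arrays (probe at chr11:120668460-120668519 of mm9). Its iron difference was -0.04 for siGFP, within the spot SD of 0.064, and 0.43 for siTfe3/Tfeb, where the array without iron was the low one. Acaca (acetyl-CoA carboxylase) stood at -0.06 and 0.15.

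Elongation and desaturation genes had medians of 0.11 and 0.32 with iron. Fads2, the desaturase that starts polyunsaturated chains, read 1.48, 1.72, 1.02 and 1.65, differences of 0.23 and 0.63, and was the only fatty acid member at least 1.5-fold higher with iron. Its 4 further probes lay from -0.06 to 0.19 with siGFP and from 0.51 to 0.62 with siTfe3/Tfeb. With the mean of all probes Fads2 was 0.08 and 0.59, and Acly also reached 1.5-fold with siTfe3/Tfeb (0.61). The chromosomal neighbour of Fads2, Fads1, differed by 0.06 and 0.04. Scd1, a desaturase that makes oleate, read -0.23, 0.03, -0.06 and 0.44 (0.25 and 0.50), and the related Scd2 stood at -0.05 and 0.16. Scd probes of near-identical copies may share signal. Elovl6, which lengthens palmitate, stood at 0.11 and 0.32.

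Set side by side, the sterol median exceeded the fatty acid median by 0.32 with iron in siGFP cells and by 0.37 in siTfe3/Tfeb cells. On the brightest probes, 10 of 22 sterol members in siGFP cells stood above the highest fatty acid member (Acss2). In siTfe3/Tfeb cells 13 of 22 stood above the highest (Fads2). The reverse overlap was small: 1 of 9 fatty acid members in siGFP cells and 0 of 9 in siTfe3/Tfeb cells lay above the sterol median. Genes are not replicates, so this is a description of these arrays. With knockdown the families did not separate in this way, with sterol minus fatty acid at -0.14 without iron (-0.076 when Acly and Acss2 are left out) and -0.11 with iron.

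**Figure D4:**
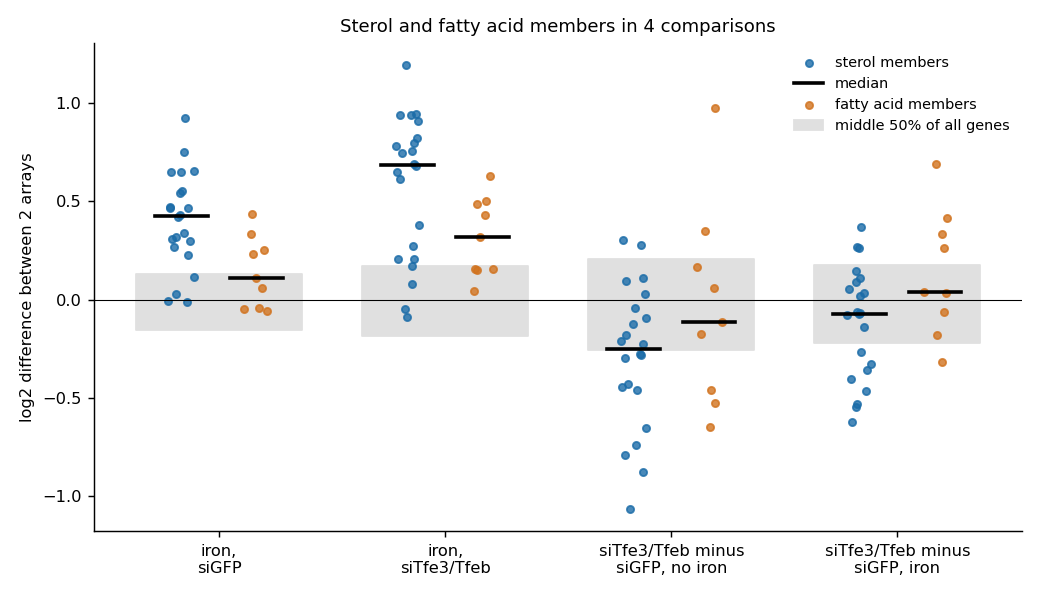
Log2 differences of the sterol and the fatty acid members in the 4 comparisons of 2 arrays, each point a gene and each black bar the median; the grey band holds the middle 50% of all genes measured. With iron the sterol medians (0.43 and 0.69) lie above the band in both siRNA groups, and with knockdown the sterol medians (-0.25 and -0.07) lie inside it. For knockdown without iron that median (-0.252) is close to the lower edge of the band (-0.256).

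Without iron, 17 of 22 sterol members were below 0 with knockdown, against 53.4% of 14276 genes, with a median of -0.25 (-0.028 over all genes). At least 1.5-fold lower were Hsd17b7, Idi1, Sc5d, Lss and Cyp51, 5 of 22 where 7.57% of all genes were, and Fasn was the only such fatty acid member (-0.65). With the mean of all probes 3 sterol members were 1.5-fold lower, Lss being -0.28 and Sc5d -0.28. Hsd17b7 was the lowest at 47.8% of the siGFP level (log2 -1.07, spot SD 0.084), followed by Idi1 at 54.4% and Sc5d at 57.9%. Ebp stood at -0.44 and Sqle at -0.46. On the brightest probes 13 sterol members were lower by more than 2 spot SDs, and Tm7sf2 (0.28) and Insig2 (0.31) were the 2 higher. The share of all genes past 2 spot SDs was not computed.

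With iron the knockdown difference of the sterol members was smaller, with 13 of 22 below 0 (52.8% of 14027 genes), a median of -0.07 (-0.020 over all genes) and only Hsd17b7 at least 1.5-fold lower (-0.62, 5.60% of all genes). That median was 0.024 with median centring of the arrays (0.075 over all genes), so its sign is not settled. Hsd17b7 was then -0.53, no longer 1.5-fold lower. From 2-fold, knockdown left 1 member lower without iron (1.83% of genes) and 0 with iron (1.33%), and 0 higher in either (1.39% and 0.834%). On their brightest probes 9 sterol members lay below the siGFP array by more than 2 spot SDs, and 3 lay above it. Below were Hsd17b7, Scap (-0.54), Sc5d (-0.53), Ebp (-0.46), Idi1 (-0.40), Cyp51 (-0.36), Insig1 (-0.33), Lss (-0.26) and Mvk (-0.14). Above were Mvd (0.37), Insig2 (0.27) and Stard4 (0.26). With median centring Mvk (-0.045) and Insig1 (-0.23) were no longer past that cut. Pmvk (0.21), Fdft1 (0.15), Srebf2 (0.18) and Dhcr7 (0.24) then also lay above, so the balance of the directions depends on the scaling. The share of all genes past that cut was not computed. The other Sc5d probe stood at 0.50, so the direction of Sc5d depends on the probe. The same holds for Lss and Stard4. Other Lss probes stood at 0.76 and -0.06, with a mean of all probes of 0.15, and the second Stard4 probe at -0.06. The fatty acid median was -0.11 without iron (-0.018 with normexp and quantile normalization) and 0.041 with iron (0.14 with median centring).

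The iron difference was larger in siTfe3/Tfeb than in siGFP cells for 16 of 22 sterol and 7 of 9 fatty acid members, against 50.0% of 13825 genes. The median difference of the responses was 0.21 in both families (0.00024 over all genes), and no member's reached 1.5-fold, which 2.60% of all genes did in the higher and 2.49% in the lower direction. Lss, Idi1, Fasn and Hsd17b7 had the largest, at 0.47, 0.47, 0.47 and 0.44, with spot SDs from 0.091 to 0.12. More than 2 spot SDs above 0 were 11 sterol and 5 fatty acid members, and Tm7sf2 (-0.34) and Acss2 (-0.28) lay as far below 0. The share of all genes past that cut was not computed, and the spot SD leaves out variation between cultures. The siTfe3/Tfeb array without iron enters both the difference of the responses and the knockdown difference without iron. It was the lowest of the 4 arrays for 16 of 22 sterol members and 5 of 9 fatty acid members, against 31.9% of all genes. A low value of that 1 culture and a changed response to iron cannot be told apart.

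Of the 4 arrays, siGFP with iron was the highest for 13 of 22 sterol members and siTfe3/Tfeb with iron for 8, against 26.2% and 18.4% of all genes. Across the 22 sterol members the iron differences in the siRNA groups had a Pearson r of 0.82 and a Spearman rho of 0.85, and across the 9 fatty acid members 0.34 and 0.42. Over all 13825 genes they were 0.68 and 0.57. The points are genes on the same 4 arrays, not independent replicates.

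For 15 sterol members 18 further probes were well above background on all arrays. With iron, 15 (siGFP) and 17 (siTfe3/Tfeb) of them had the sign of the brightest probe, and with knockdown 14 (no iron) and 13 (iron). Of 14 further fatty acid probes, 10 and 11 had it with iron and 10 and 9 with knockdown. The medians of the sterol probes with iron were 0.33 and 0.44, and the 4 and 10 of them that belong to genes at least 1.5-fold higher all lay above 0. A second Hsd17b7 probe gave 0.77 and 1.17, and a second Cyp51 probe 0.85 and 1.13. Smaller were a second Sc5d probe at 0.17 and 0.43 and a second Ebp probe at 0.04 and 0.18, and a dim Dhcr7 probe stood at -0.19 and 0.38 (spot SD 0.37). With the mean of all probes Sc5d was 0.41 and 0.67 and no longer 1.5-fold higher with siGFP, and Dhcr7 was 0.06 and 0.52, no longer so with siTfe3/Tfeb. With knockdown without iron, 3 of 5 further probes of the sterol genes at least 1.5-fold lower had the sign of the brightest. A dimmer Lss probe stood at 0.46 without iron and 0.76 with iron, and a dimmer Sc5d probe at 0.23 and 0.50, all opposite to the brightest probe. Another Lss probe stood at -0.57 and -0.06. The 4 further Fads2 probes all lay below 0 without iron, from -0.71 to -0.29.

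**Figure D5:**
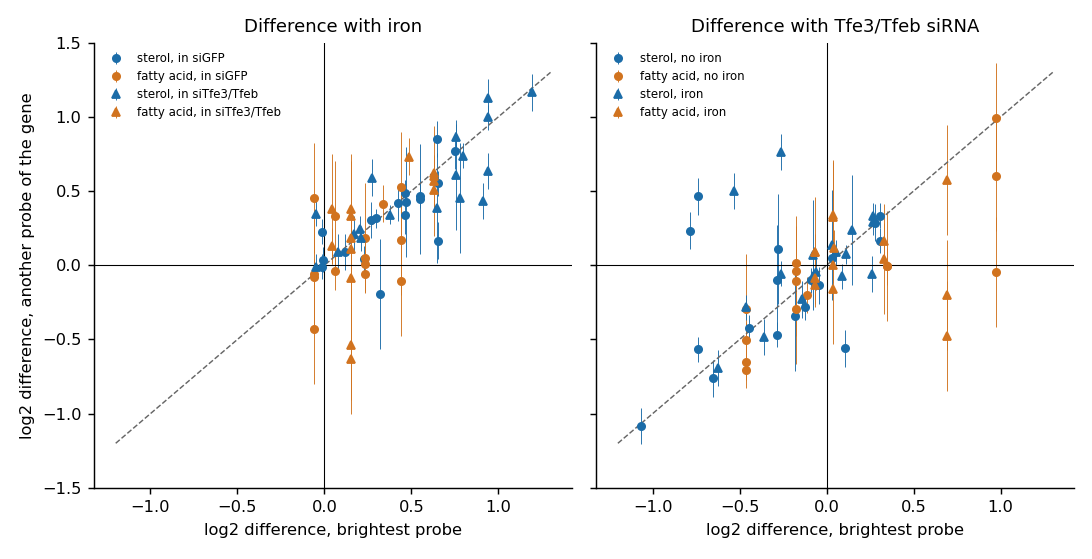
Log2 difference of each further probe of a member (vertical, with the SD of repeated spots) against that of its brightest probe (horizontal), with iron on the left and with Tfe3/Tfeb siRNA on the right; the dashed line marks equal values. With iron most sterol probes lie above and to the right of 0, and with knockdown some lie above and to the left, where probes of 1 gene differ in sign.

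Lists of other genes of these pathways had lower medians with iron than the sterol members. Of 7 other enzymes of sterol synthesis, 5 were measured, with medians of 0.23 (siGFP) and 0.35 (siTfe3/Tfeb). In each group 1 of these 5 was at least 1.5-fold higher, against 4.18% and 4.58% of all genes, so the count rests on 1 gene. Erg28, a scaffold of the demethylation complex, stood at 0.31 and 0.35. The branches that leave farnesyl diphosphate for prenyl groups, dolichol and ubiquinone had medians of 0.022 and -0.0098 over 8 genes, led by Nus1, a subunit of the dolichol-making enzyme, at 0.44 and 0.56. Genes that process SREBP or degrade proteins through Insig had medians of -0.071 and -0.094 over 10 genes, with Rnf145 at -0.43 and -0.20. Of 20 further genes of fatty acid synthesis and activation, 18 and 17 were measured, with medians of 0.049 and 0.25. Me1 (malic enzyme, a source of NADPH) stood at 0.43 and 1.01. It was the only one at least 1.5-fold higher, 0 of 18 with siGFP (4.18% of all genes) and 1 of 17 with siTfe3/Tfeb (4.58%), a share near that of all genes. The 4 genes of mitochondrial fatty acid synthesis had medians of 0.010 and -0.13, with Oxsm at -0.47 and -0.19.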

How the data were processed

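Per the labels' protocols, total RNA of 4 cultures was labelled with Cy3 and hybridised to Agilent mouse arrays. Agilent Feature Extraction 12.0.3.1 produced the spot values, per the submitters' processing notes. Per the file headers, the deposited processed intensity had its background subtracted and spatial trends removed, with no scaling between arrays and probe positions on mm9. The deposited matrix of the authors' processed values is in log2, centred on each probe's median. Its differences had a slope of 1.0 against the scanner values, and its column medians were -0.0042, 0.022, -0.087 and 0.0013.

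Here spots with outlier flags were left out, which removed 3 of 56605 probes. Levels are log2 intensity minus each array's 75th percentile. Probes were named by RefSeq accession (33759), then symbol (9871), and 12972 named no gene. A gene counted as measured where its brightest probe was well above background on every array compared. The spot SD pools probes repeated at least 9 times per array. Promoter windows came from RefSeq, with matches counted per gene. The summary was tested on simulated data.

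The number of arrays limits the precision. The members and lists were chosen with earlier results of these data known. By rule all members are named, with at most 3 genes of each other list, of which some are not reported here. Promoters of enzymes with a sterol regulatory element were to be printed. Alternatives were normexp background correction (offset 50, limma 3.58.1, with the 75th percentile or quantile normalization), quantile normalization, median centring, the series matrix values, the mean of all probes, no filter on background, a 2-fold threshold, sterol enzymes only, and leaving out Acly and Acss2.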

Additional observations from a re-analysis of the deposited data

How the results depend on the processing

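Of the summary values recomputed under the alternatives, 210 stayed within the spot SD of bright probes or, for counts, within 1.5 times, 14 moved and 1 reversed. A 2-fold threshold left 0, 1, 1 and 0 members different (iron in siGFP, iron in siTfe3/Tfeb, knockdown without iron, knockdown with iron) in place of 5, 15, 7 and 2. With median centring the sterol median for knockdown with iron turned from -0.07 to 0.024, the fatty acid median there went from 0.041 to 0.14, the members 1.5-fold different went from 2 to 1 as Hsd17b7 was lost, and the difference of responses went from 0.21 to 0.28 in both families. The mean of all probes gave a fatty acid median of 0.11 and 1 member for knockdown with iron, as Acss2 was lost, and took the sterol members lower without iron from 5 to 3. For knockdown without iron the fatty acid median of -0.11 was -0.040 with quantile normalization and -0.018 with normexp and quantile normalization, and sterol minus fatty acid was -0.076 without Acly and Acss2. Sterol enzymes alone gave a difference of responses of 0.27. Median centring moves all genes of a comparison by the same amount. Over all genes the median went from -0.020 to 0.075 for knockdown with iron. For the difference of responses it went from 0.00024 to 0.071. The cause of the other shifts was not tested. Of the values of single members, 994 stayed within their spot SD and 91 moved, and none at least 1.5-fold different changed sign. No replicate could be left out, and no paired analysis was possible because each group holds 1 array. Spot SDs for levels from -2 to 0 and from 0 to 2 rest on only 10 and 16 combinations of probe and array.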

Other observations

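Genes that take up, store and export cholesterol differed in both directions with iron. Of 7 genes of cholesterol uptake and esterification, 6 were measured, with medians of 0.39 (siGFP) and 0.30 (siTfe3/Tfeb). Above 0 were 6 and 5 of them, against 46.0% and 49.0% of all genes, and Soat2 was below 0 with siTfe3/Tfeb (-1.19). Soat1, which esterifies cholesterol in macrophages, read 2.05 without and 2.53 with iron on the siGFP arrays, and 2.27 and 2.69 on the siTfe3/Tfeb arrays, so both iron arrays stood above both others. Its relative Soat2 read -0.88, -0.68, 0.95 and -0.24, high on the siTfe3/Tfeb array without iron alone (spot SD 0.12).

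Liver X receptor genes, which respond to sterol excess, had medians of -0.24 and -0.30 with iron over 8 genes, of which 3 and 2 were above 0 where 46.0% and 49.0% of all genes were. The cholesterol exporter Abca1 read -1.06, -1.60, -1.45 and -2.24 in the same order of arrays, differences of -0.54 and -0.79. Mylip, which marks lipoprotein receptors for degradation, differed by -0.35 and -0.67. Others of the list, chosen after their values were seen, were near 0: Lpcat3, a phospholipid acyltransferase, stood at 0.05 and 0.05, and Nr1h2, a liver X receptor itself, at 0.02 and 0.04.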
